A study of Arabidopsis thaliana with 4 samples.

Results

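The tau class glutathione transferases measured here are 10 probe sets of the Arabidopsis array, each annotated with a single gene whose symbol is GSTU followed by a number. They are GSTU20, GSTU27, GSTU18, GSTU26, GSTU16, GSTU23, GSTU28, GSTU22, GSTU25 and GSTU15, in order of mean log2 signal over all 4 arrays. Of the 13350 genes that the annotation names on a probe set of their own, 11 are GSTU genes, and the 10 brightest of these were chosen by mean log2 signal. The mean log2 signal was 2.12 for GSTU15, the last one kept, and 0.93 for GSTU21, the one left out. RefSeq lists 27 genes with a GSTU symbol in its TAIR10.1 gene table, and the other 16, GSTU19 among them, were not analysed here because no probe set was annotated with them. The members were thus selected on their signal, and the levels below are a description without a test. The genotype difference played no part in ranking the probe sets. The family was singled out with results of these arrays known, and the rule that chose it named GSTU16 and GSTU20.

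Glutathione transferases couple the tripeptide glutathione to reactive or foreign compounds, and the conjugates are then moved into the vacuole. The tau class is a large, plant-specific class with a serine in its active site, and many of its genes lie in tandem arrays. Tau class genes are best known for their induction by herbicides, oxylipins and other stresses, and some have been tied to light and hormone signalling.

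The study compared leaf primordia of wild type and of the mutant an3-4, with 2 arrays for each, to find transcripts that differ between them. Both genotypes are given the ecotype Col-0, grew at 22 °C under continuous light, and had their first leaf primordia harvested 7 days after sowing. The mutated gene is ANGUSTIFOLIA3 (AN3, or GIF1), whose product works with GROWTH-REGULATING FACTOR proteins to keep leaf cells dividing, and its level was not analysed here. The sources used here do not say what lesion the an3-4 allele carries, whether plants were pooled or whether replicates came from separate cultures, so the spread behind the p-values may be technical.

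Signals were deposited on a linear scale and were rescaled here so that all arrays share 1 trimmed mean. Median signals were then 65.1 to 69.6, and log2 signals correlated across probe sets at 0.956 and 0.958 within the genotypes and at 0.949 to 0.954 between them. A gene counts as measured here only if a probe set was annotated with it alone. Genes not counted may still have probe sets that the annotation used leaves without a gene name. Of the markers of green leaf tissue, 3 of 15 were measured, and their summed signal was 12062 to 12660 in wild type and 11695 to 13251 in an3-4. Of these, LHCB4.2 had a log2 difference of -0.39, PSAE-1 of 0.20 and LHCB4.1 of 0.07, each without overlap between genotypes, and none was called. Of 17 root markers 5 were measured, with sums of 43.6 to 63.4 and 39.6 to 63.2, and 4 of these lay under the 40th percentile of signal on every array. The only shoot meristem marker measured, CLV3, lay under that percentile on every array, at 29.1 and 24.5 in wild type and 7.56 and 21.0 in an3-4. Of 8 stomatal markers 3 were measured, with sums of 209 to 225 in wild type and 177 to 197 in an3-4. None of these 3 was called, and the groups of each overlapped. SPCH had 139 and 182 in wild type and 146 and 113 in an3-4 (limma adjusted p = 0.398). MUTE and FMA had log2 differences of 0.05 and 0.01. None of the 8 vascular markers had a probe set annotated with it alone. Log2 ratios of 3' to 5' control probe sets are a measure of RNA integrity. For 3 of 6 pairs they did not overlap between genotypes and were then 0.12 to 0.23 higher in an3-4. These were the ubiquitin pairs and an actin pair, while the GAPDH pairs and the other actin pair overlapped. The part of these ratios in the results was not tested.

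Between the genotypes 2 of the 10 tau class probe sets were lower in an3-4, GSTU20 and GSTU16, and none was higher. Both were named when the family was chosen with results known, so this count is no result about the class. GSTU20 fell 1.74-fold and GSTU16 fell 1.94-fold. Over all probe sets 5.16% were called, 2.51% lower and 2.66% higher, in limma at a Benjamini-Hochberg adjusted p under 0.05. No member other than these 2 had an unadjusted limma p under 0.05. Of all 22746 probe sets 2159 were higher and 1756 lower at that level. Most probe sets thus did not pass either, so this count too is no result about the class. The median log2 difference of the 10 members was 0.15, against 0.02 for all probe sets. Of the 10 differences 4 lay below 0 and 6 above. The median and this count include 5 members under the 40th percentile of signal on all 4 arrays. Log2 differences of these 5 carry no measured fold, so neither figure describes the class. In RNA from whole primordia, fewer cells of a type and less RNA per cell cannot be told apart.

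**Figure D1:**
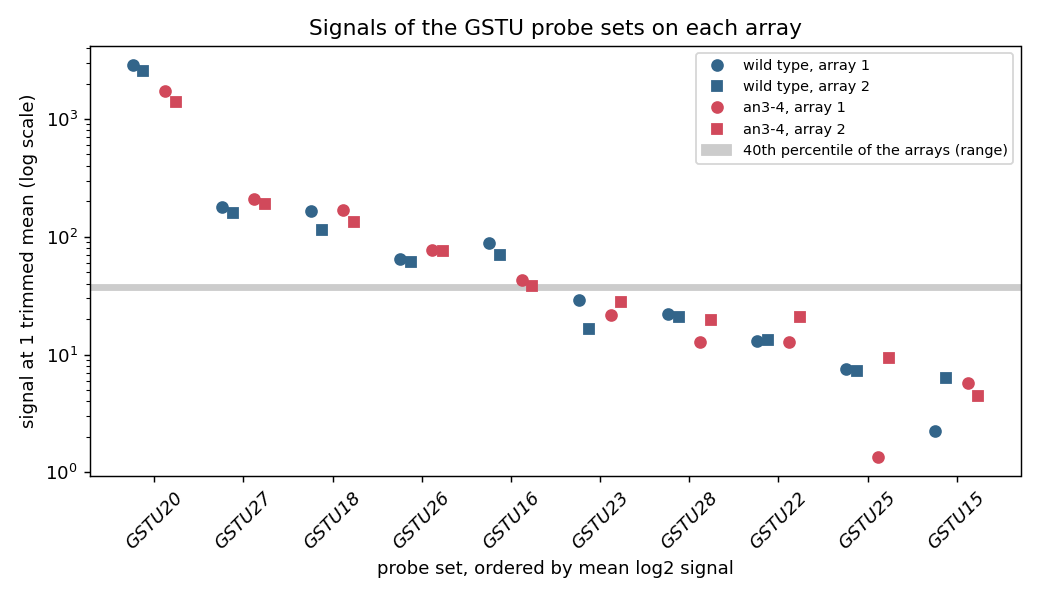
Signal of each tau class probe set on each of the 4 arrays at 1 trimmed mean, on a log axis, with wild type in blue and an3-4 in red, arrays numbered 1 as circles and 2 as squares, and the range of the arrays' 40th percentiles as a grey band. The 2 an3-4 signals of GSTU20 and of GSTU16 lie below both wild-type signals, and the 5 dimmest members lie under the band on every array.

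GSTU20 (AT1G78370) encodes the enzyme also known as FIP1, a partner of the jasmonate-conjugating enzyme FIN219 (JAR1) in far-red light signalling, and it has also been linked to aliphatic glucosinolate synthesis. Its signals were 2850 and 2548 in wild type and 1715 and 1395 in an3-4. The groups did not overlap, and every array lay above the 97th percentile of its probe sets. Mean signal was 2699 ± 213 in wild type and 1555 ± 227 in an3-4 (SD, n = 2 arrays). The log2 difference of an3-4 from wild type was -0.80 ± 0.11 (SE), with a 95% interval of -1.05 to -0.55 and a limma adjusted p of 0.00386. Single arrays of the genotypes differed by -1.03 to -0.57 on the log2 scale. The values as deposited were 2618 and 2773 in wild type and 1576 and 1518 in an3-4, which did not overlap either, and the limma adjusted p was then 0.0418, at which 1.21% of probe sets were lower.

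GSTU16 (AT1G59700) had signals of 88.0 and 70.5 in wild type and of 43.1 and 38.4 in an3-4. The groups did not overlap. Wild-type signals lay at percentiles 56.2 and 51.6 of their arrays and an3-4 signals at 42.2 and 39.8, so the mutant level was close to the dim part of the array. Mean signal was 79.3 ± 12.4 in wild type and 40.7 ± 3.34 in an3-4 (SD, n = 2 arrays). The log2 difference was -0.95 ± 0.21 with a 95% interval of -1.43 to -0.48 and a limma adjusted p of 0.0321. With signals raised at least to the 40th percentile of their array the difference was -0.94. Only 1 signal, in an3-4, lay under that percentile and just below it, so this could change the difference little. With an offset of 32 added to the signals the difference was -0.61 (limma adjusted p = 0.0894). The call depended on the processing. Among the alternatives counted next, the replicate block on deposited values in effect repeats the block on rescaled ones. On the values as deposited the limma adjusted p was 0.127, and leaving out any 1 array gave 0.0600 to 0.170, while over 13 alternatives it ranged from 0.00526 to 0.261 and passed in 6.

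**Figure D2:**
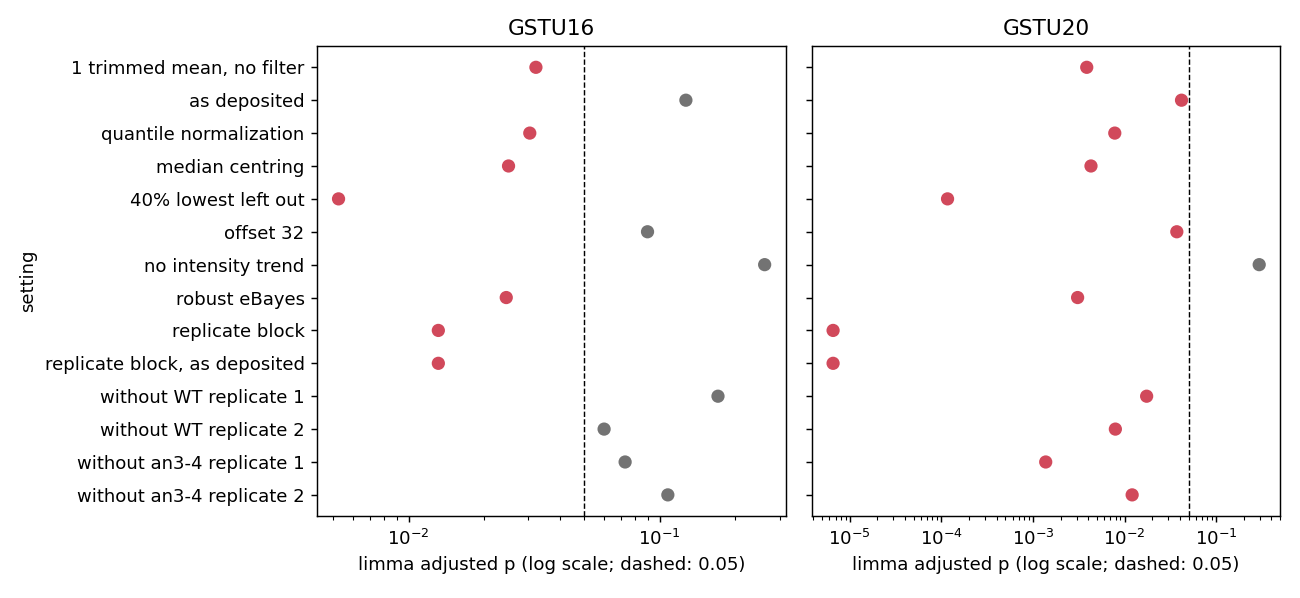
Limma adjusted p (log axis, dashed line at 0.05) of GSTU16 and GSTU20 under the reported setting, in the top row, and 13 alternatives. GSTU20 stays under 0.05 in 12 alternatives and GSTU16 in 6, with the points past 0.05 in grey.

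The other 3 members above the 40th percentile on every array, GSTU27, GSTU26 and GSTU18, were not called. GSTU27 (AT3G43800), the one member that is not on chromosome 1, had signals of 179 and 160 in wild type and 211 and 189 in an3-4. The groups did not overlap, and the log2 difference was 0.24 ± 0.11 with a 95% interval of -0.01 to 0.48 (limma adjusted p = 0.307). GSTU26 (AT1G17190) had 64.6 and 60.7 in wild type and 76.9 and 76.1 in an3-4. These groups did not overlap either, and the log2 difference was 0.29 ± 0.17 with an interval of -0.09 to 0.67 (limma adjusted p = 0.440). GSTU18 (AT1G10360) had 166 and 115 in wild type and 169 and 134 in an3-4, groups that overlapped. Its log2 difference, which changed sign when single arrays were left out, was 0.12 ± 0.18 with an interval of -0.29 to 0.54 (limma adjusted p = 0.814). The upper ends of these intervals correspond to folds of 1.40 for GSTU27, 1.59 for GSTU26 and 1.45 for GSTU18, and the lower ends to 0.995, 0.942 and 0.820 of the wild-type level.

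Signals of 5 members, GSTU23, GSTU28, GSTU22, GSTU25 and GSTU15, lay under the 40th percentile on all 4 arrays, so their log2 differences carry no measured fold and serve only to show how wide the errors are. GSTU23 had 28.8 and 16.6 in wild type and 21.8 and 28.1 in an3-4. GSTU28 had 22.1 and 20.8 in wild type and 12.7 and 19.5 in an3-4, and was the only one of the 5 whose groups did not overlap. GSTU22 had 12.9 and 13.3 against 12.9 and 20.7. GSTU25, whose enzyme can detoxify the explosive TNT, had 7.61 and 7.21 in wild type and 1.36 and 9.32 in an3-4. The an3-4 arrays of GSTU25 differed more from each other than from wild type. GSTU15 had 2.23 and 6.30 in wild type and 5.68 and 4.42 in an3-4. SEs of the log2 difference were 0.41 for GSTU23 and 0.98 for GSTU25, against 0.11 for GSTU20, and a genotype difference was not detectable at these signals (limma adjusted p from 0.675 for GSTU25 to 0.892 for GSTU23). Of the 10 members 3 lay lower and 2 higher in an3-4 without overlap between genotypes, which over all probe sets held for 20.8% and 25.0%, so a lack of overlap is common with 2 arrays a group. An exact permutation test of 2 against 2 arrays cannot give a two-sided p below 0.333.

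**Figure D3:**
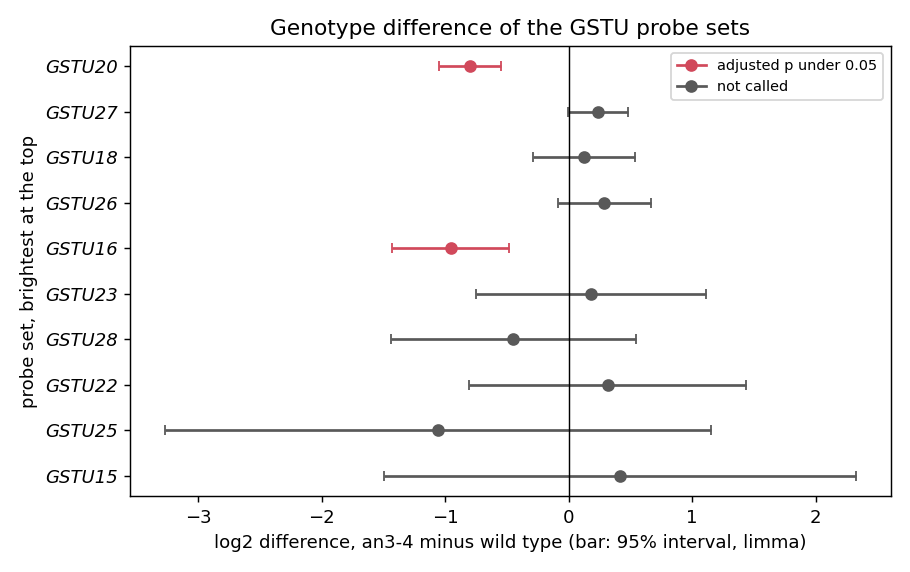
Log2 difference of an3-4 from wild type for the 10 tau class probe sets, brightest at the top, with 95% intervals from limma. The intervals of GSTU20 and GSTU16, in red, lie below 0, and those of the other 8 members include 0, with the widest for GSTU25 and GSTU15.

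All members but GSTU27 lie on chromosome 1, several in tandem arrays. GSTU25 and GSTU26 are direct neighbours in gene order, GSTU16 lies 4 gene positions from GSTU15, and GSTU20 lies 4 positions from GSTU22, which is 2 from GSTU23. Beside GSTU20, neither GSTU22 nor GSTU23 was called, and both were dim, as was GSTU21, its direct neighbour, with signals of 0.777 to 3.18. Likewise GSTU15 beside GSTU16 was too dim to be compared with it. Whether the difference between genotypes itself differs between tandem copies was not tested. All 10 identifiers end in the plain suffix _at, which on these arrays marks probe sets designed for 1 transcript, and hybridisation between copies was not tested.

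No measured gene close to either lowered member was called lower. GSTU19 (AT1G78380), next to GSTU20 by locus number, had no named probe set and is not among them. Of the 20 nearest measured genes of GSTU20, from AT1G78170 to AT1G78620, 1 was higher and none was lower, with a median log2 difference of 0.12. That gene was AT1G78450, 8 positions away, at 1.54 ± 0.26 (limma adjusted p = 0.0113). Of the 20 nearest measured genes of GSTU16, from AT1G59520 to AT1G59930, none was called in either direction, and the median was 0.00018. Their log2 differences ranged from -1.86 to 0.64. AT1G59660, at position -5 from GSTU16, was just short of a call at -1.40 ± 0.36 (limma adjusted p = 0.0605). Over the named genes of chromosome 1, 3.43% were lower and 2.49% higher, so none lower among 20 genes is near that share. Several neighbours also had wide errors, such as AT1G59630 with an SE of 1.31 and GSTU15 with 0.84 beside GSTU16. A difference as large as that of GSTU16 could not have been called for these.

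**Figure D4:**
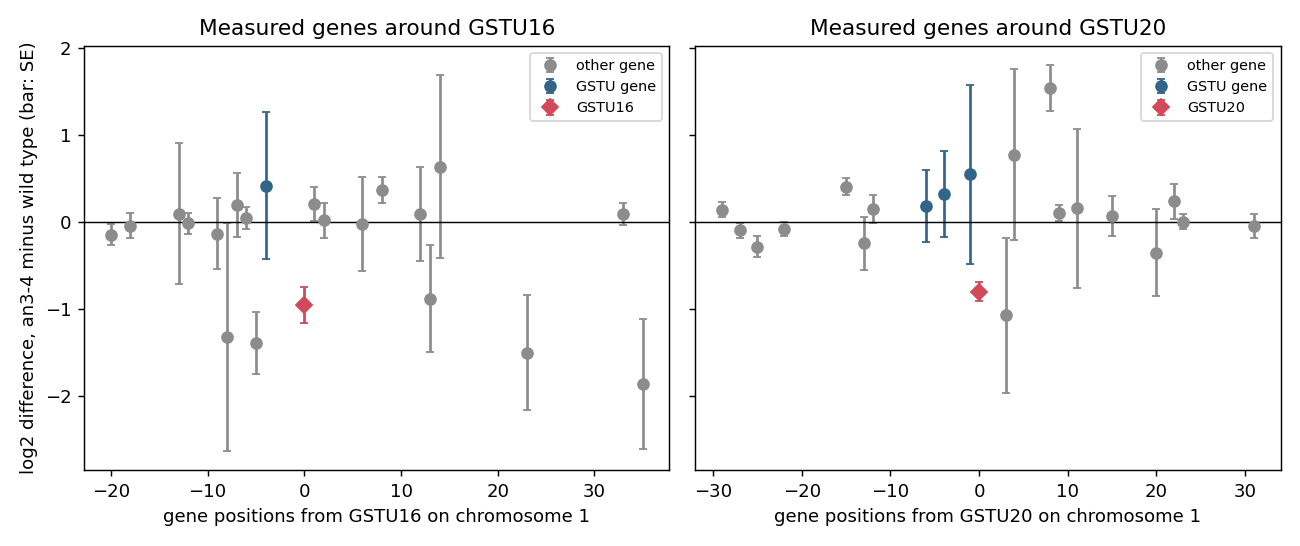
Log2 difference (an3-4 minus wild type, bar SE) of the 20 nearest measured genes of GSTU16 and of GSTU20 by distance in gene positions along chromosome 1, with GSTU genes in blue and the named member as a red diamond. GSTU16 at -0.95 and GSTU20 at -0.80 have small errors, while neighbours with lower values have wider ones and were not called.

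The genes most like GSTU20 and GSTU16 across the arrays were found by Euclidean distance between mean-centred log2 profiles over the 4 arrays, among single-gene probe sets above the median signal. GSTU16 itself lay under that median, so genes as dim as it were not among the candidates. For GSTU20, of 5995 probe sets, the nearest were AT4G02200 at a distance of 0.013, AT1G66760 at 0.093 and AT1G11670 at 0.099. The signals of AT4G02200 were 207 and 184 in wild type and 123 and 99.8 in an3-4. For GSTU16, of 5996, the nearest were CDI at 0.098, CP5 at 0.11 and again AT1G11670 at 0.13. CP5 (AT1G64720) had signals of 3113 and 2624 in wild type and 1548 and 1499 in an3-4. All of these genes were lower in an3-4, which follows from how they were chosen. CDI (AT1G64980), CP5 and AT1G66760 lie between AT1G61670 and AT1G67330, a stretch where 28 of 290 measured genes were lower and 12 higher, and AT4G02200 lies between AT4G01897 and AT4G03340, where 8 of 81 were lower and 2 higher, against 2.51% lower and 2.66% higher over all probe sets. Both stretches had been picked in these data for holding many lowered genes, so these counts follow from that choice. GSTU16 itself lies 273 gene positions before the first of these stretches.

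Lists of glutathione metabolism and of processes to which GSTU genes have been linked were sparsely covered by the annotation used. Of their 117 genes 13 were measured and 1 was called, the glucosinolate gene BCAT4, against 5.16% of all probe sets. The lists were made with earlier results of these data known, so their counts are a description only. Of the glutathione synthesis and recycling list 2 of 14 genes were measured and neither was called. GR1, the cytosolic and peroxisomal glutathione reductase that regenerates glutathione, had signals of 623 and 604 in wild type and 494 and 503 in an3-4. The groups did not overlap, and the log2 difference of -0.30 ± 0.07 had a limma adjusted p of 0.0510. GR2, the reductase of plastids and mitochondria, had -0.11 ± 0.08 (limma adjusted p = 0.558). The medians of the list and of all probe sets were -0.20 and 0.02.

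Of the other transferase classes, none of 3 measured genes was called. GSTL3, of the lambda class, had 345 and 352 in wild type and 419 and 383 in an3-4, a log2 difference of 0.20 ± 0.08 (limma adjusted p = 0.252) with an unadjusted p of 0.0380. GSTF4, 1 of 2 measured among 13 phi class genes, had 23.9 and 32.2 against 36.4 and 45.9 (limma adjusted p = 0.412). Both wild-type signals of GSTF4 and 1 in an3-4 lay under the 40th percentile, and with these raised to it the log2 difference was 0.18. Its partner on the list, GSTF13, was dim on all arrays, at 6.09 to 13.8.

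None of the 5 measured genes of the 18 on the xenobiotic and oxylipin response list was called. AER, an alkenal reductase that removes reactive carbonyls, had 81.7 and 71.5 in wild type and 92.8 and 95.7 in an3-4, a log2 difference of 0.30 ± 0.15 (limma adjusted p = 0.360). The other 4, the efflux carriers DTX3 and DTX4 and the glycosyltransferases UGT73B4 and UGT73B5, lay under the 40th percentile on all arrays. DTX4 had the smallest unadjusted p of the list, 0.0615, with signals of 27.7 and 22.1 in wild type and 1.94 and 19.5 in an3-4. JMT, which methylates jasmonic acid and was the only measured gene of 15 on the jasmonate list, was also dim, at 1.22 to 2.60. On the lists of vacuolar ABCC transporters and of reactive oxygen scavengers no gene had a probe set annotated with it alone. Their levels were therefore not analysed here.

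Of the 18 genes on the aliphatic glucosinolate list 2 were measured and 1 of these fell, against 2.51% lower over all probe sets. The list was made with earlier results of these data known and only 2 genes were measured, so this count is no result about the pathway. BCAT4, which starts the chain elongation of methionine, had signals of 1216 and 1009 in wild type and 548 and 385 in an3-4, a log2 difference of -1.27 ± 0.15 (limma adjusted p = 0.00183), and UGT74C1, a glucosyltransferase of the core pathway, had -0.17 ± 0.08 (limma adjusted p = 0.354).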

How the data were processed

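The authors deposited linear MAS5 signal intensities, 1 for each probe set, per the labels and the submitters' processing notes. The MAS5 version and target are not given in the sources used here. With 2% trimmed at each end, array means were 143 on both arrays numbered 1 and 169 on both numbered 2. Each array was therefore multiplied by 1.09 or 0.919 to reach 1 trimmed mean of 155, a choice made with earlier results of these data known, as were the members and the gene lists. The log2 signals of 22746 probe sets were tested in limma 3.58.1 under R 4.3.3 (lmFit, eBayes with an intensity trend, genotype as the only term), without a signal filter, after 64 controls were left out. The fit had 2 residual and 6.96 prior degrees of freedom. P-values were adjusted over all 22746 and called under 0.05. Arrays carry no counting depth, and their number limits the precision. A single gene was annotated for 13513 probe sets, several for 503 and none for 8730, and 13436 matched RefSeq. A listed gene was represented by its brightest probe set. Every member was to be named, with up to 4 called genes or else the 2 smallest p of each list, and 3 genes most like GSTU16 and GSTU20. Neighbour counts, signals raised to the 40th percentile and the block on deposited values were added after seeing the data. The alternatives tried were other scalings, a 40% signal filter, an offset of 32, other moderation, a replicate block, leaving out each array, a threshold of 0.1 and every GSTU probe set. The scripts were tested on simulated data. Protein sequences of the members were not analysed here. Coordinates are not given, and RefSeq served for names and gene order.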

Additional observations from a re-analysis of the deposited data

How the results depend on the processing

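GSTU20 kept its direction in all alternatives and its call in all but the fit without the intensity trend, which called no probe set at all in limma (1549 higher and 1261 lower at an unadjusted p under 0.05) and gave GSTU20 -0.80 (adjusted p = 0.294) and GSTU16 -0.95 (adjusted p = 0.261). GSTU16 kept its direction throughout and lost its call on the values as deposited (-0.95), with an offset of 32 (-0.61) and when any 1 array was left out (-1.11 to -0.79, where a genotype's single array is taken to vary like the other genotype). The count of lower members, 2, was 1 as deposited, 1 with the offset, 1 without any 1 array and 0 without the trend, and no member was called higher in any alternative. The uncalled members GSTU18 (-0.14 to 0.39), GSTU23 (-0.22 to 0.58), GSTU22 (-0.025 to 0.66), GSTU25 (-2.44 to 0.33) and GSTU15 (-0.33 to 1.16) changed sign with an array left out, and so did the listed genes JMT (-0.19 to 0.68), GSTF13 (-0.54 to 0.63), UGT73B5 (-0.0065 to 2.91) and DTX3 (-0.46 to 1.12). GSTF13 was -0.0039 with median centring. All of these but GSTU18 lay under the 40th percentile on all 4 arrays, and the cause was not tested. Over all probe sets, 604 were higher and 570 lower as reported, 264 and 276 as deposited, 295 and 300 with the offset, 0 and 0 without the trend, 967 and 859 under the replicate block on both scales, 286 to 514 and 333 to 407 without 1 array, and 972 higher at an adjusted p under 0.1. Of the glutathione synthesis list 1 gene, GR1, passed as lower with median centring, the 40% filter, either block or a threshold of 0.1. DTX4 made 1 lower call of the xenobiotic list without an3-4 replicate 2, a range of 0 to 1 over single arrays left out, and the glucosinolate list lost its call, to 0, without the trend. Replicate numbers are shared between genotypes in the labels, and same-numbered arrays were deposited at the same trimmed mean, 143 or 169. Deviations from the genotype means correlated at -0.0098 between same-numbered arrays over all probe sets, dim ones included. This correlation does not register a scale shared by a whole array, so it cannot decide whether the numbers pair the arrays. The reported fit has no replicate term. With the replicate block GSTU20 and GSTU16 had the same differences, -0.80 and -0.95, and adjusted p of 6.58e-06 and 0.0131. The block on the deposited values was added after seeing the data. It could not differ in substance from the block at 1 trimmed mean, because same-numbered arrays were multiplied by the same factor.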

Other observations

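At 1 trimmed mean, array 1 exceeded array 2 in both genotypes for all 5 members with any signal above the 40th percentile. This held for 26.3% of all probe sets, dim ones included, a broader set than these members. The rescaling, by 1.09 for arrays numbered 1 and 0.919 for those numbered 2, itself raises array 1 against array 2. On the values as deposited array 1 exceeded array 2 in both genotypes for 1 of the 5, and the share over all probe sets was not computed.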
